A study of Mus musculus with 12 samples.

Results

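Apolipoproteins are the protein part of the particles that carry lipids in blood and cerebrospinal fluid, and 10 of their genes were described on all 12 arrays: Apoa1, Apoa2, Apoa4, Apoa5, Apob, Apoc1, Apoc3, Apoe, Apoh and Apom. All probe sets listed with these 10 genes were taken, 13 in all, among 17097 named genes on the array. Apoa1, Apoh and Apom had 2 probe sets each and the other members 1. Where a gene had 2, the one with the larger average stands for it. All 10 genes passed the filter on low values, which left 13073 genes tested.

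Brain and liver of male BALB/c mice aged 10 weeks were measured on Affymetrix mouse arrays, with 1 array for each combination of tissue, preservation and time after death. Formalin-fixed paraffin-embedded (FFPE) tissue spent 24 h in 10% formalin, waited 7 d as blocks and was sliced at 10 µm, and fresh-frozen (FF) tissue was put in RNAlater. FFPE RNA was amplified with a kit made for FFPE material and FF RNA with a 3' in vitro transcription kit, so preservation and kit cannot be told apart. Tissue was taken at 0 h, at 3 h (bodies held at room temperature) or at 18 h (bodies held at 4 °C), so time and temperature cannot be told apart either. The groups were thus FFPE liver, FF liver, FFPE brain and FF brain, each at 0 h, 3 h and 18 h. The labels do not say how many mice were used or whether arrays share a mouse, and no condition was repeated. The spread behind the p-values therefore comes from how far the FFPE and FF time courses disagreed, pooled over both tissues. Limma then drew it towards the spread of all genes (4 residual and 8.39 prior degrees of freedom). It is not the spread between animals. In bulk tissue, fewer cells of a type and less RNA per cell cannot be told apart. The tissue labels were checked on marker genes: hepatocyte markers averaged 12.2 to 12.29 in FFPE liver and 12.43 to 12.47 in FF liver, and neuron markers averaged 9.06 to 9.18 in FFPE brain and 10.43 to 10.5 in FF brain (mean log2 intensity).

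Hepatocytes make most plasma apolipoproteins. Apob is the structural protein of very-low-density particles, while Apoa1 and Apoa2 are the main proteins of high-density particles, on which Apom also travels and carries sphingosine-1-phosphate. Apoc1, Apoc3 and Apoa5 tune the clearance of triglycerides, Apoa4 responds to feeding and fasting, and Apoh (beta-2-glycoprotein I) binds phospholipids. Apoe is a ligand of the low-density lipoprotein receptor family, and in brain it is made chiefly by astrocytes.

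In the RefSeq annotation (GRCm38.p6), Apoa1, Apoc3, Apoa4 and Apoa5 lie side by side on chromosome 9, and Apoc1 and Apoe lie side by side on chromosome 7 beside Apoc2 and Apoc4. Apoa2, Apoh, Apob and Apom lie on chromosomes 1, 11, 12 and 17. RefSeq promoter windows (250 bases before to 50 after a start, 12 windows for 8 members, none for Apoc1 and Apoc3 in the table used) were searched on both strands. The core promoter motif TATAAA occurred in 5 of the 12 windows, against 13.6% of 32851 windows of all genes. Windows of a gene can overlap: both Apoa5 windows held the same match, so the 5 windows stand for 4 genes (Apoa2, Apoa5, Apob and Apoe). AGGTCA, which nuclear receptors bind, occurred in 2 against 16.3%, GTTAAT, part of the HNF1 motif, in 1 against 7.1%, and CAAAGTCCA, the core of the HNF4 motif, in 0 against 0.475%. TATAAA can overlap itself on opposite strands, and a match is only a match of letters. Shown here are the windows of the 3 genes whose values stood apart: Apom, which fell in liver at 18 h (chr17:35131752-35132051, minus strand), Apob, which differed most by preservation in liver (chr12:7977427-7977726, plus strand), and Apoe, the member high in both tissues (chr7:19699139-19699438, minus strand, the outermost of its 3 starts). Each runs 5′ to 3′, and capitals mark a match to 1 of the 4 motifs.
Apom: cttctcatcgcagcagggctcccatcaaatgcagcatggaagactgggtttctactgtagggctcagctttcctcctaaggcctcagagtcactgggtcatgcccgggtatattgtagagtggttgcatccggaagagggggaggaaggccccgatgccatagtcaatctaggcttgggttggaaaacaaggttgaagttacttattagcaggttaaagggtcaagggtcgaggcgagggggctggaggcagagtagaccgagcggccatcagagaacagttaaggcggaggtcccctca
Apob: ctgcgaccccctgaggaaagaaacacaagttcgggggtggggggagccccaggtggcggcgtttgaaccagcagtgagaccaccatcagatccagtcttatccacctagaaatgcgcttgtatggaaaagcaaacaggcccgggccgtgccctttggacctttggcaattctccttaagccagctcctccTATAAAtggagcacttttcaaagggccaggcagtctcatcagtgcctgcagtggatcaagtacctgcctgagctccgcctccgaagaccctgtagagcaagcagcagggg
Apoe: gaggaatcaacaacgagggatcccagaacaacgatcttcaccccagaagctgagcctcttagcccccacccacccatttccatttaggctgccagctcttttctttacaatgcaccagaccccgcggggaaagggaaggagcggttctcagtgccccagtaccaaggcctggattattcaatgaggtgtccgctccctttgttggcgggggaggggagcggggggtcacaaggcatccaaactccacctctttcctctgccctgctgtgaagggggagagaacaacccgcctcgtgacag
The Apob window held TATAAA 60 bases before the start, and the printed windows of Apom and Apoe held none of the 4 motifs.

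All 10 members were higher in liver than in brain, in both preservations. In liver they ran from 8.54 to 12.98 in FFPE and from 8.23 to 12.95 in FF (log2 intensity). In brain the 9 members other than Apoe ran from 4.66 to 6.79 in FFPE and from 3.87 to 7.89 in FF, and Apoe reached 8.43 in FFPE and 11.3 in FF. Every member's liver values lay above its brain values of the same preservation. The share of all genes so separated was not counted. The liver-minus-brain difference passed the threshold (limma, Benjamini-Hochberg adjusted p under 0.05 over 13073 genes) for 10 of 10 members in FFPE, where 34.5% of all genes were called higher, and for 10 of 10 in FF, where 36.5% were. Apoc3 reached the array median on 6 liver and only 2 brain arrays. It thus passed the filter, and entered these counts, only through the tissue where it was high. In FFPE the members' median difference was 6.79, against 0.04 over all genes tested, and in FF it was 6.67, against 0.04.

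Apoe stood apart from the other members by its level in brain. It read 11.98, 11.98 and 11.89 in FFPE liver and 8.16, 8.15 and 8.43 in FFPE brain at 0, 3 and 18 h. It read 12.48, 12.38 and 12.34 in FF liver and 11.18, 11.03 and 11.3 in FF brain. The 4 series did not overlap, in the order FF liver, FFPE liver, FF brain and FFPE brain. Liver exceeded brain by 3.70 ± 0.11 in FFPE and by 1.23 ± 0.11 in FF (limma log2 difference ± SE, adjusted p = 3.65e-12 and 2.51e-07). In FFPE, the difference was smaller for Apoa4 (3.65 ± 0.12) and largest for Apoh (7.50 ± 0.20). In FF, Apoe had the smallest difference of the 10 and Apoc3 the largest, 7.45 ± 0.21.

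**Figure D1:**
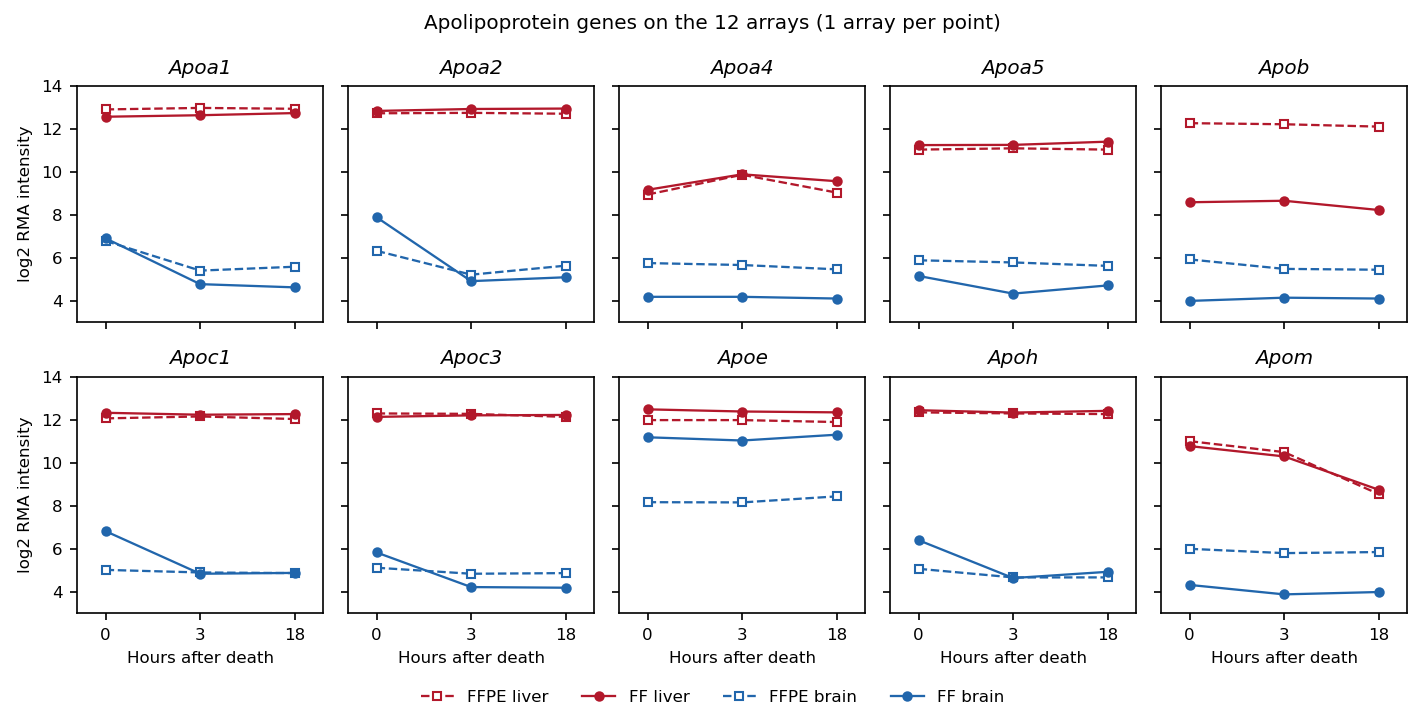
Log2 RMA intensity of each member (vertical axis) at 0, 3 and 18 h after death (horizontal axis, equally spaced), 1 array per point, so no error bars. FFPE is dashed with open squares, FF solid with filled circles, liver red and brain blue. Apom fell in both liver series, Apob was far higher in FFPE than in FF liver, and Apoe was the only member above 8 in brain.

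Apom was the member that changed most in liver after death. In FFPE liver it read 11, 10.49 and 8.54 at 0, 3 and 18 h, and in FF liver 10.77, 10.29 and 8.74. Both 18 h arrays lay below all 4 earlier liver arrays. At 18 h it fell by 2.25 ± 0.15 on the log2 scale against 0 h, 4.74-fold (95% interval -2.57 to -1.92, limma adjusted p = 1.49e-05), and this was the 4th largest decrease of 13073 genes. At 18 h it also fell by 1.75 ± 0.15 against 3 h (adjusted p = 8.6e-05). The 3 h value was 0.50 below 0 h (± 0.15) and did not pass the threshold (adjusted p = 0.28).

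The second Apom probe set showed the same course. It read 9.35, 8.6 and 7.35 in FFPE liver and 9.86, 9.09 and 7.1 in FF liver at 0, 3 and 18 h. Its 18 h change against 0 h was -2.38 ± 0.19 (limma adjusted p = 7.23e-05 over 29688 probe sets). In the FFPE brain Apom read 5.99, 5.79 and 5.84, and in FF brain 4.31, 3.87 and 3.98, with an 18 h change of -0.24 ± 0.15 (adjusted p = 0.995). The tissue difference of the 18 h change was tested directly and was -2.01 ± 0.21 (liver minus brain, adjusted p = 0.00171). By the main probe set, Apom reached the array median on 0 of 3 FF and 3 of 3 FFPE brain arrays. At such low values a fall in brain could hardly show. The test therefore cannot say whether the fall was particular to liver.

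The other members did not pass the threshold in liver against 0 h. At 18 h, Apom was 1 of 10 members called lower, where 10.9% of all genes were, and 0 members were called higher, where 3.61% of all genes were. At 3 h, 0 members were called, where 0.245% of all genes were. An unadjusted p under 0.05 by limma was found for 2 of 10 members, Apoa4 and Apom, and for 1206 of 13073 genes. For the 8 members without Apom and Apoa4, single-array differences of 3 h or 18 h against 0 h ran from -0.36 to 0.17, and the 95% intervals of the fitted changes ran from -0.76 to 0.82. Apoa1, as an example, read 12.91, 12.98 and 12.94 in FFPE liver and 12.57, 12.64 and 12.74 in FF liver. These 8 included Apob, at -0.26 ± 0.17 at 18 h. The highest value of any probe set was 13.44, and whether the top of the scale compressed changes of the brightest members was not tested.

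**Figure D2:**
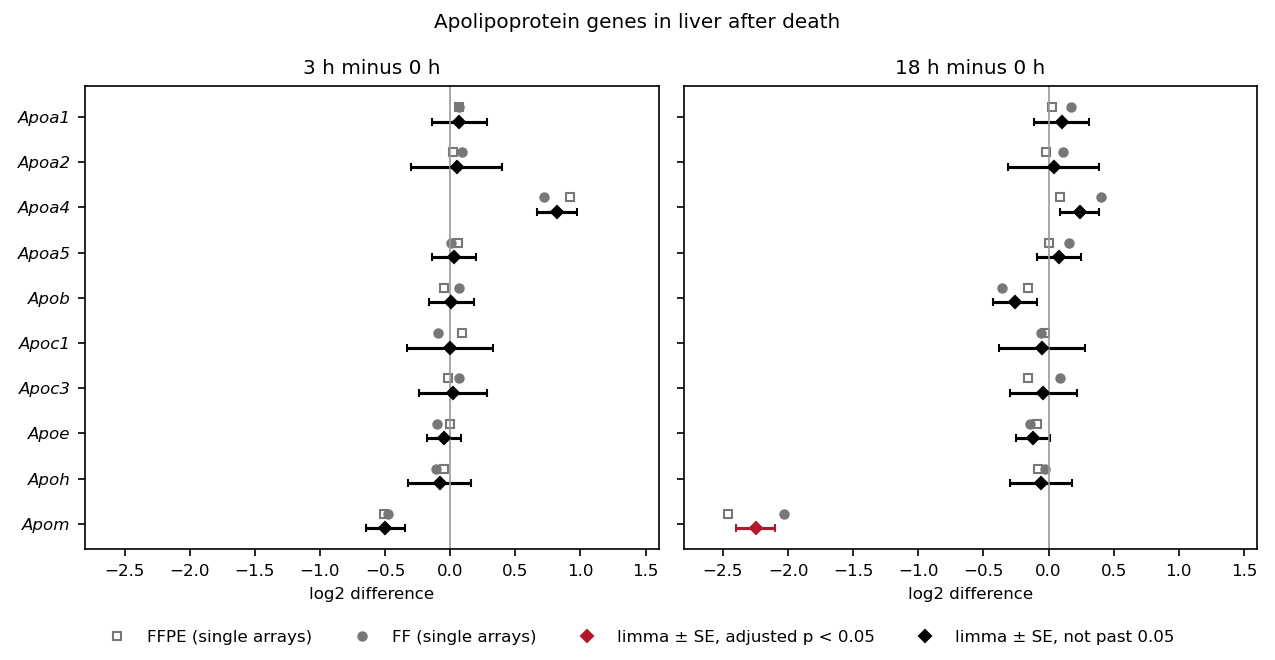
Liver change at 3 h (left) and 18 h (right) against 0 h for each member (log2 difference on the horizontal axis). Open squares are FFPE and filled circles FF differences between single arrays, and diamonds are limma estimates ± SE, red where adjusted p was under 0.05. Apom at 18 h, -2.25 ± 0.15, is the only red diamond.

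Apoa4, a protein of chylomicrons and high-density particles, was highest in liver at 3 h in both preservations. It read 8.95, 9.87 and 9.04 in FFPE liver and 9.17, 9.89 and 9.57 in FF liver at 0, 3 and 18 h. Both 3 h arrays lay above the other 4. The 3 h difference from 0 h was 0.82 ± 0.15 (limma adjusted p = 0.0537), just short of the threshold. At 18 h Apoa4 fell by 0.58 ± 0.15 against 3 h (adjusted p = 0.032), and 18 h against 0 h was 0.24 ± 0.15 (adjusted p = 0.342). Against 3 h, Apom and Apoa4 were thus 2 of 10 members called lower at 18 h, where 7.58% of all genes were, and 0 were called higher, where 2.76% of all genes were. The Apoa4 call was lost in 11 of 20 alternatives, among them quantile normalization (-0.39, adjusted p = 0.126) and leaving out the FFPE 18 h array (-0.37, adjusted p = 0.196), the FFPE 3 h array (-0.40, adjusted p = 0.349) or the FF 3 h array (-0.75, adjusted p = 0.0683). The 3 h difference passed without either 18 h liver array (adjusted p = 0.0144 for each). Kupffer cell markers, of liver macrophages, moved at the same times in the opposite direction to Apoa4. Of 4 tested, 3 were called lower at 3 h against 0 h (median -1.24), where 22 of 13073 genes were. At 18 h against 3 h, 3 were called higher (median 0.83), where 2.76% of all genes were. Of 3 erythroid markers, 2 were called higher at 3 h against 0 h (median 1.3), where 10 of 13073 genes were. At 18 h against 0 h, 2 were called higher (median 1.09), where 3.61% of all genes were, and against 3 h 0 were (median -0.33). The part of either list in the Apoa4 values was not tested.

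Measures of RNA integrity moved with time in liver. For the Gapdh control, the 3' probe set minus the 5' one was 1.04, 1.63 and 1.77 in FFPE liver and 0.03, 0.82 and 1.14 in FF liver at 0, 3 and 18 h. In brain it was 1.22 to 1.25 in FFPE and -0.02 to 0.05 in FF. The same difference for the actin control was -0.18 to -0.01 in FFPE liver and 1.09, 2 and 1.9 in FF liver, so the controls did not share a course in FFPE. The part of this difference in the Apom and Apoa4 values was not tested.

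The genes nearest to Apom in their course over the 6 liver arrays, by root mean square difference after each preservation's mean was subtracted, were Bckdhb (0.17), Mrpl15 (0.197) and Imp4 (0.207). Bckdhb encodes a subunit of branched-chain ketoacid dehydrogenase, Mrpl15 a mitochondrial ribosomal protein and Imp4 a protein of ribosomal RNA processing. Their 18 h changes were -1.88, -1.91 and -1.82. Bckdhb read 8.19, 7.62 and 6.07 in FFPE liver and 9.9, 9.61 and 8.27 in FF liver. Nearest to Apoa4 were Trmt61a (0.0971), Zfc3h1 (0.103) and Rffl (0.106), with 3 h differences from 0 h of 0.63, 0.65 and 0.61. In each case the 3 genes were chosen from 13072 for likeness to Apom or Apoa4 on these same arrays. A matching change was thus fixed by the choice, and their values are a description.

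In liver, Apob differed most by preservation of the 10 members. In FFPE liver it read 12.27, 12.22 and 12.11, against 8.59, 8.66 and 8.23 in FF liver, at 0, 3 and 18 h. The 3 FFPE values all lay above the 3 FF values. The FFPE-minus-FF difference was 3.71 ± 0.14, 13.1-fold (limma adjusted p = 2.13e-09), the 10th largest increase of 13073 genes. In FFPE brain Apob read 5.93, 5.49 and 5.45, against 4, 4.15 and 4.11 in FF brain, a difference of 1.54 ± 0.14 (adjusted p = 2.91e-07). The liver difference exceeded the brain difference by 2.17 ± 0.19 (adjusted p = 1.87e-06). Genes with a mean of 8 to under 11 in FF liver, the range that held Apob, had a median FFPE-minus-FF difference of -0.67 (2271 genes, quartiles -1.21 and -0.18). In the assembly list described below, 2 of 12 genes were higher in FFPE liver, where 27.8% of all genes were, and 9 lower, where 43.5% were. The list's median was -0.51, against -0.17 over all genes. Its genes ran from Mia2, a cargo factor at endoplasmic reticulum exit sites, at 3.35 ± 0.13 to Tm6sf2, a factor of particle lipidation, at -1.78 ± 0.13.

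Apoe was lower in FFPE in both tissues. The difference was -0.45 ± 0.11 in liver (limma adjusted p = 0.00243) and -2.92 ± 0.11 in brain, 7.59-fold lower (adjusted p = 2.65e-10). In neither tissue did the 3 FFPE values overlap the 3 FF values given above. The tissue difference was 2.47 ± 0.15 (liver minus brain, adjusted p = 1.19e-07). Genes with a mean of 11 or more in FF brain, among them Apoe, had a median difference of -0.73 (147 genes, quartiles -1.22 and -0.24). Of 5 tested astrocyte markers in brain, 2 were called higher in FFPE, where 28.4% of all genes were, and 3 lower, where 53.4% were. Their median was -0.66, against -0.42 over all genes. Slc1a2, a glutamate transporter, was at 3.36 ± 0.15 and Aqp4, a water channel, at -2.11 ± 0.15. Clu, another apolipoprotein made by astrocytes, fell by 0.85 ± 0.11 in FFPE brain (adjusted p = 1.02e-05).

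In liver, Apob and Apoe were the only members called: 1 of 10 higher, where 27.8% of all genes were, and 1 of 10 lower, where 43.5% were. The other 8 had differences between -0.26 and 0.29. Under quantile normalization and under array median centring the count of members called was 4 rather than 2. In brain, 5 of 10 members were called higher in FFPE, where 28.4% of all genes were, and 2 of 10 lower, where 53.4% were. The 5 were Apoa1 (0.49 ± 0.17), Apoa4 (1.47 ± 0.12), Apoa5 (1.03 ± 0.14), Apob and Apom (1.82 ± 0.12), and the 2 were Apoe and Apoh (-0.52 ± 0.20). Apoa4, as an example, read 5.76, 5.67 and 5.47 in FFPE brain, against 4.19, 4.19 and 4.11 in FF brain, with no overlap. Apoa4, Apoa5, Apob and Apom all averaged under 5 in FF brain, where the median FFPE-minus-FF difference of all genes was 0.66 (3560 genes, quartiles 0.2 and 1.18). Apoc3 averaged 4.74 in FF brain too, but its difference was 0.20 ± 0.21 and was not called. The FF level that sorted these genes also entered their difference.

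Probe sets disagreed on whether preservation passed for Apom and Apoa1 in brain and for Apoh in liver. The second Apom probe set read 4.43, 4.59 and 4.59 in FFPE brain, against 4.53, 4.3 and 4.23 in FF brain, so the groups overlapped. Its difference was 0.18 ± 0.16 (limma adjusted p = 0.298 over 29688 probe sets), against 1.82 ± 0.12 for the main one. The second Apoh probe set was lower in FFPE liver by 1.12 ± 0.11 (difference -1.12, adjusted p = 2.98e-06), and the main one gave -0.10 ± 0.20 (adjusted p = 0.68 over the same probe sets). In brain the second Apoh probe set was lower in FFPE as well, at -0.99 ± 0.11 (limma adjusted p = 4.24e-06), beside -0.52 ± 0.20 for the main one. It read 3.7, 3.42 and 3.32 in FFPE brain and 4.74, 4.23 and 4.45 in FF brain. All but the FF 0 h value lay below the array medians, so this difference is one near the floor. The main Apoh call in brain was lost without the FF 0 h array (-0.11, adjusted p = 0.486) and without the FFPE 0 h array (-0.12, adjusted p = 0.486), and on the 6 brain arrays alone (-0.52, adjusted p = 0.0535). The second Apoa1 probe set gave 0.32 ± 0.24 in brain and did not pass (limma adjusted p = 0.23 over 29688 probe sets), against 0.49 ± 0.17 for the main one. The Apoa1 call in brain was lost under array median centring (0.29, adjusted p = 0.133), with the mean of its probe sets (0.40, adjusted p = 0.103), and without any 1 of the 4 later brain arrays (0.25 to 0.42).

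The FFPE-minus-FF difference itself differed between tissues for 5 members. Apob and Apoe were 2 of 10 called higher in liver than in brain, where 36.4% of all genes were. Apoa4 (-1.73 ± 0.18), Apoa5 (-1.28 ± 0.20) and Apom (-1.74 ± 0.17) were 3 of 10 called lower, where 18.5% were. By the second Apom probe set the difference was -0.43 ± 0.22 and did not pass (limma adjusted p = 0.124). Over all genes the median difference between FFPE and FF was -0.17 in liver and -0.42 in brain, and it moved to -0.09 and -0.11 under quantile normalization and to -0.33 and -0.62 under median centring. With quantile normalization, 52.4% of all calls on the tissue difference were higher, against 66.4% as deposited.

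**Figure D3:**
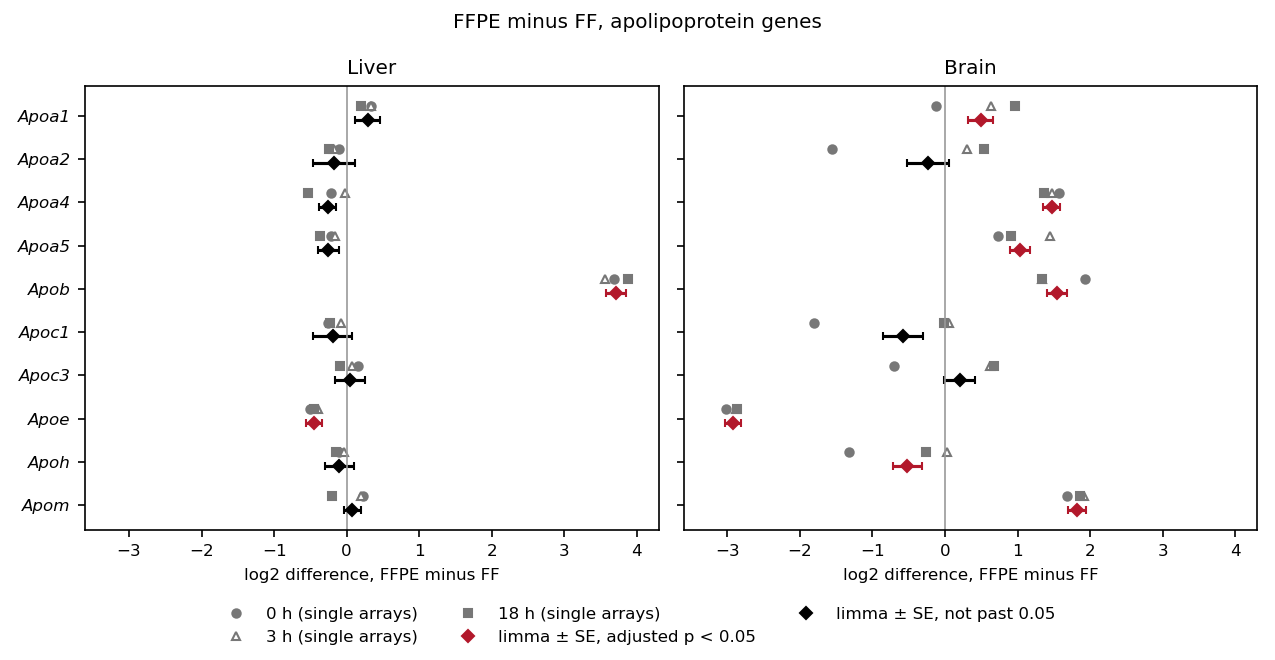
FFPE minus FF for each member in liver (left) and brain (right), as log2 difference on the horizontal axis. Grey marks are differences between single arrays at 0, 3 and 18 h, and diamonds are limma estimates ± SE, red where adjusted p was under 0.05. Apob in liver lies at 3.71 and Apoe in brain at -2.92.

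In brain, several liver-made apolipoproteins read highest at 0 h. Apoa1 read 6.79, 5.41 and 5.59 in FFPE brain and 6.91, 4.78 and 4.63 in FF brain at 0, 3 and 18 h. Both 0 h arrays lay above the other 4. Apoa1 fell by 1.75 ± 0.21 at 3 h against 0 h (limma adjusted p = 0.00399) and by 1.74 ± 0.21 at 18 h (adjusted p = 0.00729). It was 1 of 10 members called lower at 3 h, where 0.0306% of all genes were, and at 18 h, where 0.0229% were. At 3 h 0 members were called higher, where 0.0459% of all genes were. Between 18 h and 3 h in brain, 0 members were called by limma, where 0.0153% of all genes were. An unadjusted p under 0.05 was found for 0 members and for 452 of 13073 genes. Each Apoa1 call was lost in 5 of 20 alternatives, among them leaving out the FF 0 h array (-1.30 at 3 h, adjusted p = 0.107, and -1.28 at 18 h, adjusted p = 0.132). The 3 h call was also lost without the FFPE 3 h array (-1.86, adjusted p = 0.065) or the FF 3 h array (-1.65, adjusted p = 0.183), and the 18 h call without the FF 18 h array (-1.39, adjusted p = 0.409). The Apoa1 probe set used is of a type whose probes can match related sequences. The other Apoa1 probe set gave -1.72 ± 0.29 at 3 h and -1.79 ± 0.29 at 18 h, and neither passed (adjusted p = 0.0831 and 0.118 over 29688 probe sets).

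Apoa2 read 6.33, 5.22 and 5.64 in FFPE brain and 7.89, 4.92 and 5.1 in FF brain. Its 3 h difference was -2.04 ± 0.35 (limma adjusted p = 0.0759) and did not pass. The FF series carried most of the difference in Apoa2, Apoc1, Apoc3 and Apoh. Apoc1 read 5.01, 4.89 and 4.86 in FFPE brain and 6.81, 4.83 and 4.87 in FF brain. Apoh read 5.06, 4.66 and 4.66 in FFPE brain and 6.39, 4.63 and 4.92 in FF brain. Apoc3 read 5.11, 4.83 and 4.86 in FFPE brain and 5.82, 4.21 and 4.18 in FF brain. Without the FFPE 0 h array, the FF array stood alone at 0 h. The 3 h changes were then -3.03 for Apoa2, -1.96 for Apoc1, -1.69 for Apoh and -1.63 for Apoc3. At 18 h they were -2.73, -1.96, -1.54 and -1.62 in the same order. Over all runs with 1 array left out, the weakest 3 h changes of these genes were -1.05, -0.14, -0.47 and -0.27. Apoe, which is made in brain, differed from 0 h by -0.08 ± 0.13 at 3 h and 0.20 ± 0.13 at 18 h (adjusted p = 0.995 for each).

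Most other hepatocyte markers were also highest in the 0 h brain arrays. Of 10 hepatocyte markers without Ttr, 8 were highest at 0 h in FFPE brain and 9 in FF brain. The share of all genes highest at 0 h was not counted. The markers' mean was 5.34, 4.78 and 4.66 in FFPE brain and 7.31, 5.3 and 5.06 in FF brain. In FFPE brain Mup3 moved most, at 7.12, 3.56 and 3.39. Serpina1a, Cyp3a11, Cyp2e1, Hpx and Tat lay below the FFPE array medians (4.8 to 4.89) at all times there, so their differences are near the floor. Ttr, a marker of choroid plexus as well as of hepatocytes, went the other way, at 5.77, 12.52 and 12.03 in FFPE brain and 8.68, 12.72 and 12.21 in FF brain. On the linear scale, the excess of a 0 h brain array over the later brain arrays, as a percentage of the 0 h liver level of the same preservation, was 1.55 for Apoa1, 2.79 for Apoa2, 1.63 for Apoc1, 1.01 for Apoh and 0.852 for Apoc3 in FF. The 10 markers had a median of 1.98 in FF (-1.29 to 8.29) and of 0.0982 in FFPE (-0.5 to 1.78). The members' medians were 0.332 in FFPE and 0.682 in FF. The part of liver RNA, or of the piece of brain taken, in these brain values was not tested.

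**Figure D4:**
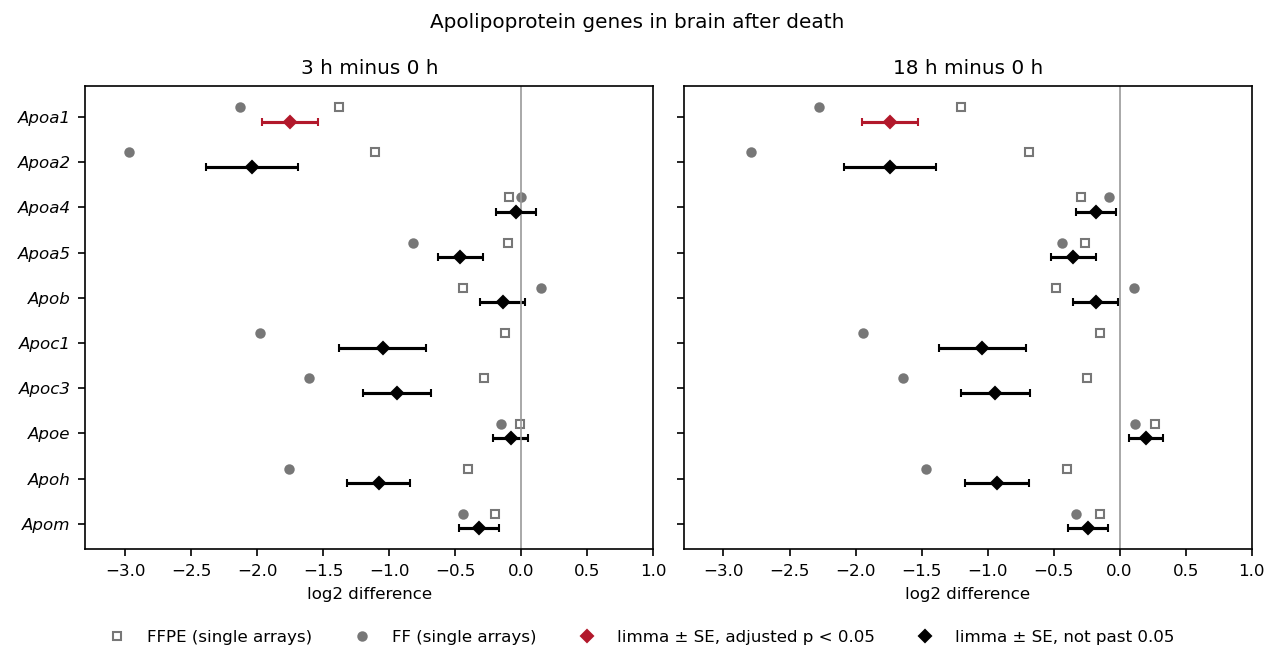
Brain change at 3 h (left) and 18 h (right) against 0 h for each member (log2 difference on the horizontal axis). Open squares are FFPE and filled circles FF differences between single arrays, and diamonds are limma estimates ± SE, red where adjusted p was under 0.05. For Apoa1, Apoa2, Apoc1, Apoc3 and Apoh the FF differences lie left of the FFPE ones, and Apoa1 alone is red.

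The time changes were compared between tissues directly. At 3 h, 0 members differed by limma, where 0.0153% of all genes did. An unadjusted p under 0.05 was found for 6 of 10 members and for 982 of 13073 genes. At 18 h, Apoa1 was 1 of 10 called higher in liver than in brain (1.84 ± 0.29, adjusted p = 0.00653), where 0.52% of all genes were, and Apom 1 of 10 called lower, where 3.96% were. Without the FF brain 18 h array the Apoa1 difference was 1.49 (adjusted p = 0.0585). Without the FFPE brain 0 h array, the FF array stood alone at 0 h in brain. The 3 h difference was then 2.28 for Apoa1, 3.09 for Apoa2, 1.96 for Apoc1, 1.65 for Apoc3 and 1.61 for Apoh. The 18 h difference was 2.78 for Apoa2, 1.59 for Apoc3 and 1.49 for Apoh.

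Other genes of lipoprotein metabolism were counted in 6 lists, in liver at 18 h. Of 10 other apolipoprotein genes tested, 0 rose and 3 fell against 0 h (median -0.19, against -0.02 over all genes). Over all genes 3.61% rose and 10.9% fell, and the other lists of this paragraph stand beside the same shares. Apoo (-1.35 ± 0.20) and Apool (-1 ± 0.13), whose products sit in the mitochondrial inner membrane, fell most, and Apoc2, the activator of lipoprotein lipase, fell by 0.51 ± 0.16 (limma adjusted p = 0.048). Of 12 genes of particle assembly and secretion, 0 rose and 1 fell (median -0.11): Sar1b, the GTPase of vesicles that carry large particles, by 0.91 ± 0.18 (adjusted p = 0.00473). Of 9 receptor and uptake genes, 0 passed in either direction (median 0.08), and likewise 0 of 4 cholesterol export genes (median 0.27).

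Of 9 genes of plasma lipid enzymes and their regulators, 1 rose and 1 fell (median -0.04), again beside 3.61% and 10.9% over all genes. Angptl8, an inhibitor of lipoprotein lipase, rose by 0.69 ± 0.19 (limma adjusted p = 0.0315), and Lcat, the enzyme that esterifies cholesterol on high-density particles, fell by 0.59 ± 0.15 (adjusted p = 0.0212). Of 13 transcription regulators, 1 rose and 3 fell (median 0.12), beside the same shares. Hnf4a, a master regulator of hepatocyte genes, rose by 0.53 ± 0.16 (adjusted p = 0.0394), while Creb3l3 (-0.59 ± 0.18), Rxra (-0.52 ± 0.15) and Foxa2 (-0.49 ± 0.14) fell. At 3 h in liver, 0 genes of these 6 lists passed. In brain, Rora, a nuclear receptor, rose by 1.06 ± 0.14 at 3 h (adjusted p = 0.0128), and 0 other genes of the 6 lists passed at 3 h or 18 h.

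Preservation was counted over the same 6 lists. Over all genes, 27.8% were higher and 43.5% lower in FFPE liver, and 28.4% higher and 53.4% lower in FFPE brain, and several lists lay near these shares. In FFPE liver against FF liver, 0 of 10 other apolipoproteins were higher and 5 lower, and 2 of 12 assembly genes were higher and 9 lower. In FFPE brain against FF brain, the counts were 2 and 3 of 10, and 4 and 6 of 12. Receptor genes gave 3 higher and 3 lower of 9 in liver and 2 and 5 in brain, with Lrp1, a large receptor for Apoe, at -1.24 ± 0.13 in liver and -2.16 ± 0.13 in brain. The lipid enzymes gave 2 and 5 of 9 in liver and 5 and 1 in brain, with Lpl, lipoprotein lipase, at -1.21 ± 0.11 in liver and -1.69 ± 0.11 in brain. Cholesterol export gave 1 and 2 of 4 in liver and 2 and 2 in brain, and the regulators gave 5 and 6 of 13 in liver and 7 and 2 in brain. Apoc2 and Apoc4, neighbours of Apoe, were higher in FFPE brain by 0.87 ± 0.13 and 0.85 ± 0.16. Apoc2 read 3.85 on all 3 FF brain arrays and Apoc4 4.29 to 5.39, and genes under 5 there had a median difference of 0.66.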

How the data were processed

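The authors deposited 1 log2 intensity for each probe set on each array. The submitters' processing notes name RMA and Affymetrix Expression Console. Whether all arrays went through RMA together is not given in the sources used here. Array medians were 4.8 to 4.89 in FFPE and 4.65 to 4.68 in FF. Arrays have no read depth, and their number limits the precision.

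The table held 45141 probe sets: 28898 had 1 gene in the platform annotation, 551 had several, 15588 had none and 104 were controls. Each gene took its brightest probe set on average. A gene was tested if 3 or more of the 12 arrays reached their own median. Limma 3.58.1 in R 4.3.3 fitted 4 series means and the 3 h and 18 h change in each tissue, 8 coefficients with 4 residual degrees of freedom, two-sided, with Benjamini-Hochberg adjustment and a threshold of 0.05. A time effect is what FFPE and FF share, from 2 arrays at each time, and preservation and tissue compare 3 arrays with 3. All arrays share 1 spread per gene. The fit was tested on simulated data. Members, gene lists and motifs were chosen with earlier results of these data known. Named genes are all members, up to 4 called genes per list and comparison (up to 4 of the marker lists too), and the 3 nearest genes of members called in a liver time comparison. Alternatives were the probe set rule, normalization, the filter, the spread and the arrays used.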

Additional observations from a re-analysis of the deposited data

Results flagged for a closer look

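Effects that differed between the tissues by a direct limma test were as follows. For FFPE minus FF, the liver difference exceeded the brain difference by 2.17 for Apob and 2.47 for Apoe, and it was below it for Apoa4 (-1.73), Apoa5 (-1.28) and Apom (-1.74), on the log2 scale. The Apom value rests on 1 of its 2 probe sets. For 18 h minus 0 h, liver minus brain was 1.84 for Apoa1, whose brain values were highest at 0 h, and -2.01 for Apom, which fell in liver. Low Apom values in brain left little room for a fall there. No group had the 4 arrays needed to look for a single array apart from the rest.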

How the results depend on the processing

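No paired analysis was possible because each condition had 1 array and the labels give no replicate numbers. Over 62 values past the threshold or with an unadjusted p under 0.05, 1224 alternatives were computed: 1160 kept direction and side, 31 fell short of the threshold, 31 passed it anew and 2 changed sign. The 18 h fall of Apom in liver passed in 20 of 20 (-2.45 to -2.04). Not all alternatives could move an estimate. Leaving out a brain array left liver time changes as they were, and the filter and spread settings altered only the spread or the adjustment. The count of members called for FFPE minus FF in liver was 4 with quantile normalization and 4 with median centring. For 3 h in brain it was 0 with the mean of all probe sets and on the 6 brain arrays alone, 2 with quantile normalization and 2 with a trended spread, and 0 to 5 with 1 array left out. For 18 h in brain it was 0 with the mean of probe sets, with no filter and on the 6 brain arrays alone, and 0 to 5 with 1 array left out. For 18 h against 3 h in liver it was 1 with quantile normalization and on the 6 liver arrays alone, and 1 to 2 with 1 array left out. For 3 h in liver it was 0 to 1 with 1 array left out. For the tissue difference at 3 h it was 1 with quantile normalization and 1 with a trended spread, and 0 to 5 with 1 array left out, and at 18 h 1 to 6. Apoc1 in brain, FFPE minus FF, was -0.58, ranged from -0.91 to 0.03 with 1 array left out, and turned to 0.03 without the FF 0 h array and 0.02 without the FFPE 0 h array. It passed as lower in 6 of 20 alternatives, among them quantile normalization (-0.61) and median centring (-0.79). The causes were not tested, apart from fewer arrays. Without 1 array, the lone array of a time was assumed to vary like the others. Over all genes, calls with 1 array left out ranged from 2 to 39 for 3 h in brain, against 10, from 2 to 31 for 18 h in brain, against 4, from 0 to 83 for 3 h in liver, against 32, from 304 to 1673 for 18 h against 3 h in liver, against 1352, and from 48 to 1152 for the tissue difference at 18 h, against 586. With the other settings, calls numbered 994 to 1901 for 18 h in liver, against 1893. Quantile normalization moved the share of higher calls to 36.2% for 18 h in liver, against 24.9%, to 38% for 18 h against 3 h in liver, against 26.7%, to 50% for 3 h in brain, against 60%, and to 24.6% for the tissue difference at 18 h, against 11.6%.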
